A study of Homo sapiens with 6 samples.

Results

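The genes described here encode the nuclear subunits of respiratory complexes II, III, IV and V. They were chosen by symbol alone: SDHA to SDHD, all symbols that begin with UQCR, CYC1, symbols that begin with COX4 to COX8, and symbols that begin with ATP5. The rule took 46 of the 16809 genes in the table, 4 for complex II, 10 for complex III, 12 for complex IV and 20 for complex V. Of these, 43 averaged 1 TPM or more across the 6 libraries and were tested. The others were UQCRHL, an intronless copy of UQCRH listed at 0.85, 0 and 0.83 TPM in the controls and at 0 in all ES-Cu libraries, ATP5MGL, a copy of ATP5MG, and the readthrough transcript ATP5MF-PTCD1, the last pair each listed at 0 in 5 of 6 libraries. The rule also takes genes that are not structural subunits, ATP5IF1, an inhibitor of the synthase, and COX7A2L, a factor of supercomplex assembly, and it leaves out NDUFA4, a complex IV subunit with a complex I symbol.

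All libraries came from CAL-27, a line of squamous carcinoma cells of the human tongue. The 3 control libraries carry the label of a normal control, and 3 libraries came from cells kept for 24 h with elesclomol-Cu (ES-Cu), elesclomol and copper at a 1:1 ratio. Elesclomol is an ionophore that binds copper and carries it into cells and mitochondria, and the submitters describe the comparison as one of the transcriptome in cuproptosis, a copper-dependent cell death. The sources used here name no doses, and nothing in them says that replicates were grown separately. Each p-value below therefore reflects how far libraries of one group lie apart, and that spread may be technical. Of 8 squamous epithelial marker genes fixed for a check of the label, all had a mean above 1 TPM, with a summed level of 2521 to 2643 TPM in control and 2927 to 2977 TPM in ES-Cu. Among them TP63 (-1.78) and CDH1 (-1.27) fell and SFN (0.95) and KRT6A (0.43) rose, the last pair named after their values were seen. SFN alone went from a mean of 640 TPM in control to 1233 TPM in ES-Cu, a larger change than that of the sum. Of 6 fibroblast markers, 5 were in the table, with a sum of 11.4 to 11.6 TPM in control and 4.72 to 5.26 TPM in ES-Cu. Of 7 immune and endothelial markers 5 were in the table, and CD68 (63.6 and 50.9 TPM) made up most of their sum of 66.9 to 73.2 TPM in control and 50.0 to 55.7 TPM in ES-Cu. Their part in the results was not tested.

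The respiratory chain of the inner mitochondrial membrane passes electrons from metabolites to oxygen and pumps protons, and ATP synthase, complex V, lets those protons back to make ATP. Complex II, succinate dehydrogenase, is also an enzyme of the tricarboxylic acid cycle. Complex III passes electrons from ubiquinol to cytochrome c, and complex IV, cytochrome c oxidase, passes them on to oxygen through haem and copper centres. The copper centres of complex IV sit in subunits encoded by mitochondrial DNA, which were not analysed here, and the nuclear genes of complex IV described below encode the surrounding subunits. Iron-sulfur clusters are carried by SDHB and UQCRFS1.

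On the deposited scale, transcripts of these genes made up 1.97% to 2.02% of all TPM in the control libraries and 1.55% to 1.59% in the ES-Cu libraries. Of the 43 tested members, 35 were called lower and 0 higher in ES-Cu (limma-trend on log2(TPM + 1), Benjamini-Hochberg adjusted p under 0.05 over all 11927 tested genes), against 70.0% of all tested genes called lower and 13.6% called higher. In 37 members all ES-Cu libraries lay below all control libraries, as in 70.3% of tested genes. The members' log2 fold changes ran from -0.89 (UQCR10) to 0.11 (ATP5MK), with a median of -0.39. The median over all tested genes was -0.50, so that on the deposited scale the median member lay above the median gene. TPM is a share of a fixed total, and a rise of a few very abundant genes can lower all others. After median-of-ratios scaling, which puts the median gene near 0 (-0.01), the median member was at 0.16 and 22 members were called higher and 6 lower, against 37.1% and 36.5% of tested genes. Under quantile normalization 5 were called higher and 30 lower (31.4% and 39.9% of tested genes). There the median member, at -0.29, lay below the median gene, at -0.07, so the order of the 2 depended on the scaling. Below, "rose" and "fell" are kept for genes whose calls had the same direction in the deposited TPM and both rescaled versions, and other calls are given as called lower or higher. By that measure 6 of 43 members fell and 0 rose, against 31.6% and 13.5% of all tested genes. The 6 were SDHA, UQCR10, ATP5F1A, ATP5MC1, ATP5MC2 and ATP5MC3. In bulk RNA, fewer living cells and less RNA per cell cannot be told apart, and TPM, as a share of a fixed total, measures neither.

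**Figure D1:**
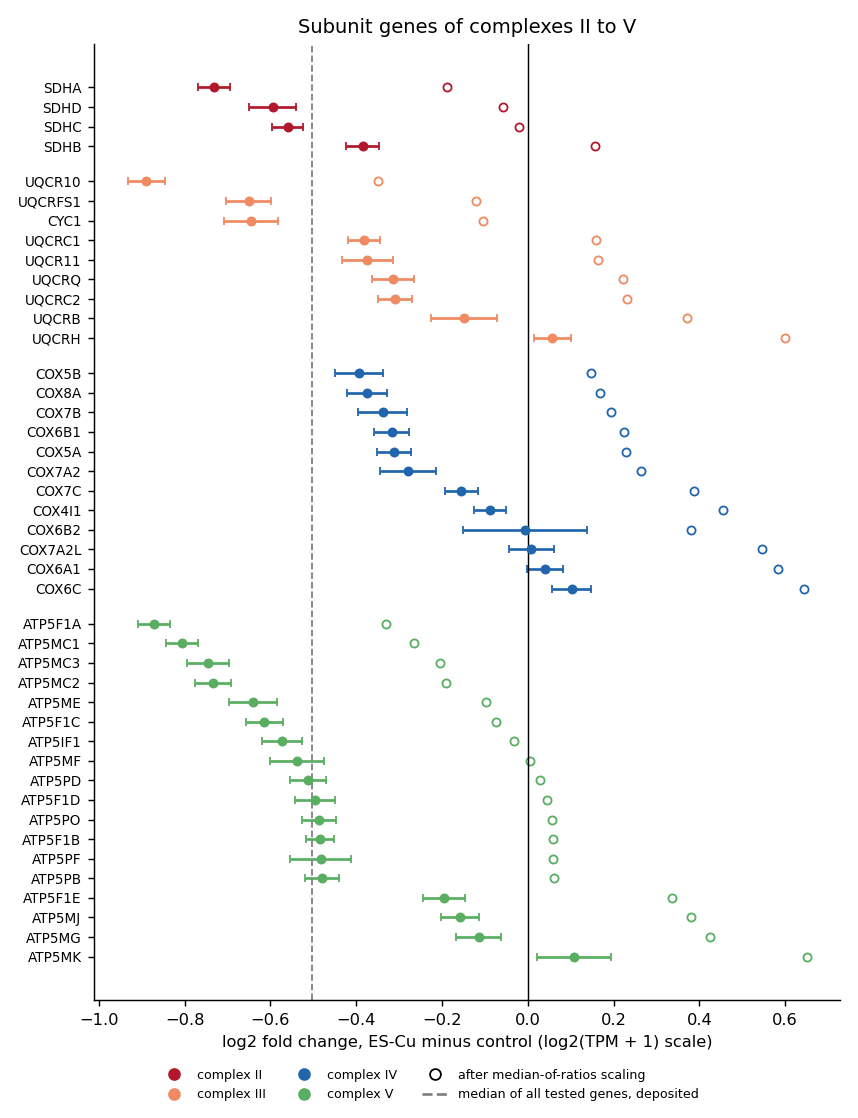
Log2 fold change (ES-Cu minus control, 3 libraries per group) of the 43 tested members, by complex. Filled points with bars are the deposited TPM with the standard error of the limma fit, open points are the values after median-of-ratios scaling, and the dashed line is the median of all tested genes in the deposited TPM (-0.50). Complex IV genes lie to the right of the dashed line, between -0.39 and 0.10. SDHA, UQCR10, ATP5F1A and the ATP5MC genes stay below 0 on both scales and have the lowest open points, from -0.35 to -0.19. SDHC, SDHD, CYC1, UQCRFS1, ATP5F1C, ATP5IF1 and ATP5ME also lie below 0 on both scales.

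Promoter sequences are shown for 8 members, chosen after the matches were seen as examples of windows with NRF1 letters, with ETS letters and with neither, because transcripts of NRF1 and GABPA, known to bind such promoters, were called in opposite directions on the deposited scale (values further on). NRF1, nuclear respiratory factor 1, binds a GC-rich palindromic motif, here searched as GCGCA and GCGC with any 1 base between them. GABPA, the DNA-binding subunit of nuclear respiratory factor 2, is a factor of the ETS family, whose core was searched as CCGGAAG. A YY1 motif, AAGATGGC, was searched as well. All were searched on both strands in windows of 300 bases, 250 before and 50 after the start, from the RefSeq promoter table on GRCh38.p14, in which 35 of the 46 members had an entry. SDHC, CYC1, UQCRB, UQCRHL, COX6C, ATP5F1B, ATP5F1D, ATP5MC3, ATP5MF, ATP5MGL and ATP5MF-PTCD1 had none. Below, 150 bases before the start and 30 from it on are given 5′ to 3′ on the gene's strand, with motif matches in capitals.
SDHA, chr5:218170-218349, plus strand: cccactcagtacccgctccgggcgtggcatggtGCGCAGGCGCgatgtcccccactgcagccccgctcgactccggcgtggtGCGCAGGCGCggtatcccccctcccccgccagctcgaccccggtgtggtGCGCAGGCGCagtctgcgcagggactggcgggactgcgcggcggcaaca
SDHD, chr11:112086723-112086902, plus strand: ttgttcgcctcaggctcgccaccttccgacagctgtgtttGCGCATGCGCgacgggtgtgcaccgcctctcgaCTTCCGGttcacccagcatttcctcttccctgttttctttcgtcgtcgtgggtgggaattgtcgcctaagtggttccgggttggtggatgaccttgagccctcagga
UQCR10, chr22:29767219-29767398, plus strand: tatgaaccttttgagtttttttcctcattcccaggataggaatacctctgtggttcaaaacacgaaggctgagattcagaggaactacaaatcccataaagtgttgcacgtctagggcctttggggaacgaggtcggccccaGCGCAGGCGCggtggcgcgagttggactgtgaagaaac
UQCRFS1, chr19:29213122-29213301, minus strand: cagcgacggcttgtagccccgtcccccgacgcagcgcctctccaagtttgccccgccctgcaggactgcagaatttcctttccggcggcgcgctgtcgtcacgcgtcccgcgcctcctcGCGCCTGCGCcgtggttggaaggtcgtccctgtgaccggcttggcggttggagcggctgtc
COX6A1, chr12:120437963-120438142, plus strand: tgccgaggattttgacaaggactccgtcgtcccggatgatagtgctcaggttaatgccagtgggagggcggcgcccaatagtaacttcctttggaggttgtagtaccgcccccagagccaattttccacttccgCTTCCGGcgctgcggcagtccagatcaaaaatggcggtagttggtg
COX8A, chr11:63974470-63974649, plus strand: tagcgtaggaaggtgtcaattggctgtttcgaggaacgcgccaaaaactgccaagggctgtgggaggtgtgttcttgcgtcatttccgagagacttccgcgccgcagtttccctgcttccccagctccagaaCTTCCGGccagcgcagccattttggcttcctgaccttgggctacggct
ATP5MK, chr10:103396446-103396625, minus strand: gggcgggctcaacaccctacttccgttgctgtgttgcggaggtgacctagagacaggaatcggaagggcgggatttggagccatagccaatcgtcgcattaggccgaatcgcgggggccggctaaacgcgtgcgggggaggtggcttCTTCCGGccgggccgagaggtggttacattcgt
ATP5MC1, chr17:48892637-48892816, plus strand: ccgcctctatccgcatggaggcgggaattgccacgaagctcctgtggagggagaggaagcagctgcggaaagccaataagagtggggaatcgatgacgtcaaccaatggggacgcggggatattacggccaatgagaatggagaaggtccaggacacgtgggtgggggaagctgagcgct
The SDHA window holds 4 NRF1 matches, 3 of them in the stretch shown, and UQCR10 and UQCRFS1 hold 1 each close to the start. SDHD has 1 NRF1 and 1 ETS match. COX6A1 and COX8A have an ETS match just before the start and no NRF1 match, ATP5MK has 3 ETS matches, 1 of them in the stretch shown, and the window of ATP5MC1 has none of the 3 motifs. The windows of ATP5F1A and ATP5MC2, which also fell, hold none of them either.

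NRF1 letters were found in 10 of 35 member promoters (28.6%), ETS letters in 15 (42.9%) and YY1 letters in 5 (14.3%). Among these, 3 members held both NRF1 and ETS letters, and no ETS match overlapped a YY1 match. The corresponding shares were 12.1%, 19.97% and 5.54% of the 9821 tested genes with an entry, and 6.28%, 10.7% and 3.03% of all 27305 promoters of that length. In complex II NRF1 letters were found in 2 of 3 windows, in complex III in 4 of 7, in complex V in 4 of 14 and in complex IV in 0 of 11, where ETS letters were found in 5. The 10 members with NRF1 letters had a median log2 fold change of -0.60 (-0.89 to -0.16) and the 12 with ETS but no NRF1 letters one of -0.32 (-0.51 to 0.11). The remaining 13 had a median of -0.31, from -0.87 to 0.01. Members that fell in all 3 scalings numbered 2 of 10 (20%) with NRF1 letters, 0 of 12 with ETS but no NRF1 letters and 3 of 13 (23.1%) with neither. Of all tested genes in these classes, 26.1%, 24.97% and 33.9% fell, so the members' shares were lower in each class. Over all tested genes the same 3 classes had medians of -0.43, -0.41 and -0.54, so the gap between the first and second class in the members was not seen across genes. These are descriptions of a small set, with no test, and a match to these letters is not a bound site.

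All 4 genes of complex II were called lower on the deposited scale, as were 70.0% of all tested genes. SDHA, the flavoprotein that oxidises succinate, stood at 421, 408 and 414 TPM in the control libraries and at 257, 246 and 245 TPM after ES-Cu. It fell to 60.2% of control (log2 fold change -0.73 ± 0.037 SE, limma-trend adjusted p = 1.94e-08), with no overlap between groups. SDHB, the iron-sulfur subunit bound to SDHA, was at 292, 290 and 297 TPM in control and at 232, 222 and 218 TPM in ES-Cu. It was called lower on the deposited scale (-0.39) but higher after median scaling (0.16). The 2 partners of the catalytic head thus differed in size of change. The SDHA to SDHB ratio of deposited TPM, which a single scaling factor per library leaves as it is but quantile normalization can alter, was 1.44, 1.41 and 1.39 in control and 1.109, 1.108 and 1.122 in ES-Cu (exact two-sided permutation p = 0.1, the smallest that 3 against 3 libraries allow). The membrane anchors SDHC and SDHD, which hold the haem and the ubiquinone site, lay between them. SDHC was at 205, 206 and 208 TPM in control and 141, 140 and 137 TPM after ES-Cu (log2 fold change -0.56). SDHD was at 98.3, 108 and 112 TPM and at 72.4, 68.0 and 69.0 TPM (-0.59). For both, control and ES-Cu libraries did not overlap, but after median scaling neither was called (-0.02 and -0.06, limma-trend adjusted p = 0.645 and 0.325).

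Complex III held the member with the lowest log2 fold change and one of the least changed. UQCR10, a small subunit near cytochrome c1, was at 189, 182 and 184 TPM in control and at 103, 100 and 95.7 TPM in ES-Cu and fell to 53.8% of control (log2 fold change -0.89 ± 0.043 SE, limma-trend adjusted p = 1.28e-08). Of the subunits that carry electrons, UQCRFS1, the Rieske iron-sulfur protein, was at 53.5, 51.6 and 56.7 TPM in control and 33.4, 34.4 and 34.0 TPM in ES-Cu (-0.65). CYC1, cytochrome c1, was at 208, 187 and 201 TPM and at 115, 130 and 136 TPM (-0.65). The groups did not overlap for either, and both were called lower as deposited and under quantile normalization but not after median scaling (-0.12 and -0.11, limma-trend adjusted p = 0.0655 and 0.202). Without control replicate 2, UQCRFS1 was called lower in all 3 scalings. The core proteins UQCRC1 and UQCRC2, which resemble mitochondrial processing peptidase, were nearer to 0. UQCRC1 was at 199, 198 and 203 TPM in control and 154, 154 and 151 TPM in ES-Cu (-0.38), and UQCRC2 at 242, 251 and 233 TPM and at 194, 193 and 198 TPM (-0.31). Both turned to called higher after median scaling (0.16 and 0.23).

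The most abundant complex III gene by TPM, UQCRH, the acidic hinge protein that docks cytochrome c, was at 1113, 1219 and 1140 TPM in control and 1251, 1169 and 1191 TPM in ES-Cu. Its groups overlapped and it was not called as deposited (0.06, limma-trend adjusted p = 0.240) or under quantile normalization (0.01), but was called higher after median scaling (0.60). The 50-base reads could be split between UQCRH and its copy UQCRHL, and its TPM is uncertain for that reason. Of the other small subunits, UQCR11 (-0.37) and UQCRQ (-0.31) were called lower, and UQCRB, which helps to bind ubiquinone, was at -0.15 and not called (limma-trend adjusted p = 0.0939). After median scaling these 3 were called higher, at 0.16, 0.22 and 0.37. Under quantile normalization UQCR11 (-0.12) and UQCRQ (-0.03) were not called, and UQCRB was called higher (0.28). UQCRB was called lower as deposited without ES-Cu replicate 1 (-0.20, limma-trend adjusted p = 0.0401).

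Complex IV had the median nearest to 0 on the deposited scale. Of its 12 tested genes 8 were called lower, a share near the 70.0% of all tested genes, and 0 higher (13.6%). In all 3 scalings 0 fell (31.6%), and the median log2 fold change was -0.22. After median scaling 11 of the 12 were called higher (37.1% of all tested genes) and 0 lower (36.5%), with a median of 0.32. COX4I1, the largest nuclear subunit, was at 1038, 1104 and 1093 TPM in control and 997, 1023 and 1022 TPM in ES-Cu. The libraries of the 2 groups did not overlap, but by a narrow margin, and its call (-0.09, limma-trend adjusted p = 0.0421) was lost without control replicate 2 or 3 or any one ES-Cu replicate (limma-trend adjusted p = 0.0526 to 0.127). COX5A, which pairs with COX4I1 early in assembly, was at 203, 209 and 203 TPM in control and 169, 160 and 166 TPM in ES-Cu (-0.31). COX5B, the zinc-binding subunit, was at 374, 353 and 362 TPM and at 251, 284 and 294 TPM, the largest change in complex IV (-0.39 ± 0.056 SE, limma-trend adjusted p = 4.65e-05). Neither overlapped between groups on the deposited scale, and both were above 0 after median scaling (0.23, called, and 0.15, not called).

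Among the small subunits of complex IV, COX8A had the highest level of all members. It stood at 2597, 2377 and 2430 TPM in control and at 1822, 2001 and 1886 TPM after ES-Cu (log2 fold change -0.38 ± 0.046 SE). COX7B was at 67.0, 59.5 and 59.4 TPM and at 48.7, 47.4 and 50.0 TPM (-0.34). COX6B1 (-0.32), COX7A2 (-0.28) and COX7C (-0.15) were also called lower, and all 5 of these were called higher after median scaling. Under quantile normalization COX7B was not called (-0.02), and COX8A, COX6B1, COX7A2 and COX7C were called lower. COX6A1 and COX6C were not called on the deposited scale. COX6A1 was at 1310, 1335 and 1342 TPM in control and 1288, 1408 and 1407 TPM in ES-Cu (0.04, limma-trend adjusted p = 0.377). COX6C was at 334, 305 and 324 TPM and at 342, 332 and 359 TPM (0.10, limma-trend adjusted p = 0.0549), and it was called higher without control replicate 1 (0.13, limma-trend adjusted p = 0.0300) and without ES-Cu replicate 2 (0.13, limma-trend adjusted p = 0.0374). The libraries of both genes overlapped between groups as deposited. After median scaling both were called higher (0.58 for COX6A1 and 0.64 for COX6C). Under quantile normalization COX6C was called higher (0.22) and COX6A1 was not called (-0.03). COX6B2, a form known from testis, was low at 2.55 ± 0.662 and 2.50 ± 0.240 TPM (mean ± SD, n = 3 per group). It was not called as deposited (-0.01) and was called higher in both rescaled versions (0.38 and 0.61).

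COX7A2L, which resembles COX7A2 and joins complex III to complex IV in supercomplexes, was not called as deposited (0.01, limma-trend adjusted p = 0.888). It was at 91.0, 102 and 97.9 TPM in control and at 97.7, 93.1 and 101 TPM in ES-Cu, with overlapping groups. Each rescaled version, by contrast, gave COX7A2L a call of higher, with log2 fold changes of 0.55 (median-of-ratios) and 0.27 (quantile). COX7A2, the subunit it resembles, was at 863, 995 and 837 TPM and at 697, 786 and 734 TPM. The COX7A2L to COX7A2 ratio was 0.105, 0.102 and 0.117 in control and 0.140, 0.119 and 0.138 in ES-Cu. The ES-Cu libraries were all higher, the second by a margin of less than the spread within groups (exact two-sided permutation p = 0.1, the smallest possible).

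Complex V held 18 of the 43 tested members and 4 of the 6 that fell, ATP5F1A and the 3 genes of the c ring. These 4 of 18 stand beside 31.6% of all tested genes that fell. In the catalytic F1 head, ATP5F1A, the alpha subunit, was at 451, 472 and 457 TPM in control and at 256, 250 and 247 TPM in ES-Cu. It fell to 54.5% of control (log2 fold change -0.87 ± 0.037 SE, limma-trend adjusted p = 5.26e-09), the second lowest value of all members. ATP5F1B, the beta subunit with the catalytic sites and the most abundant complex V transcript, was at 1584, 1561 and 1563 TPM and at 1121, 1110 and 1135 TPM (-0.48). It was called lower as deposited and under quantile normalization but stood at 0.06 after median scaling, not called (limma-trend adjusted p = 0.155). Alpha and beta subunits are paired in the head, and the ATP5F1A to ATP5F1B ratio of TPM was 0.285, 0.302 and 0.292 in control and 0.228, 0.225 and 0.218 in ES-Cu, without overlap (exact two-sided permutation p = 0.1). Of the central stalk, ATP5F1C (gamma) was at -0.61, ATP5F1D (delta) at -0.50 and ATP5F1E (epsilon) at -0.20, all called lower as deposited. ATP5F1E, called higher in both rescaled versions (0.34 and 0.13), is the smallest of the head's parts.

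The c ring, the rotor through which protons pass, fell in all its 3 genes. ATP5MC1, ATP5MC2 and ATP5MC3 encode one mature protein with different import sequences. ATP5MC1 was at 453, 430 and 458 TPM in control and 257, 256 and 252 TPM after ES-Cu (log2 fold change -0.81 ± 0.038 SE, limma-trend adjusted p = 1.03e-08). ATP5MC2 was at 593, 566 and 616 TPM and at 354, 347 and 364 TPM (-0.73), and ATP5MC3 at 253, 229 and 237 TPM and at 149, 139 and 139 TPM (-0.75). The groups did not overlap in any of them, and their sum went from 1278 ± 46.4 to 753 ± 9.09 TPM, or 58.9% of control. Within that sum the ATP5MC1 share differed by -1.09, the ATP5MC2 share by 0.91 and the ATP5MC3 share by 0.18 percentage points. ATP5MC1 supplied 34.9%, 35.1% and 34.9% of it in control and 33.8%, 34.5% and 33.4% in ES-Cu (exact two-sided permutation p = 0.1), ATP5MC2 46.2% ± 0.690 and 47.2% ± 0.857 (p = 0.3, exact permutation) and ATP5MC3 18.8% ± 0.706 and 18.9% ± 0.615 (p = 0.7, exact permutation), over 3 libraries per group. For 3 such shares the p-values are given unadjusted, since none can pass 0.05.

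The stator, which keeps the head from turning, showed nearly equal changes. ATP5PB, ATP5PD, ATP5PF and ATP5PO had log2 fold changes of -0.48, -0.51, -0.48 and -0.49, all called lower as deposited and under quantile normalization, and from 0.03 to 0.06 after median scaling, where 0 of 4 were called. Of 5 small membrane subunits of the synthase, which help to hold its dimers together, 3 were called lower as deposited, ATP5ME (-0.64), ATP5MF (-0.54) and ATP5MJ (-0.16). ATP5MG was at 159, 152 and 148 TPM in control and at 146, 146 and 131 TPM in ES-Cu (-0.11, limma-trend adjusted p = 0.0610) and was not called. ATP5MG and ATP5MJ were called higher after median scaling (0.43 and 0.38). ATP5MG was called lower as deposited without ES-Cu replicate 1 (-0.14, limma-trend adjusted p = 0.0446). ATP5MK, a late-joining subunit of the dimer interface, was at 551, 493 and 404 TPM in control, the most uneven control values among tested complex V genes relative to their mean, and at 504, 510 and 534 TPM in ES-Cu. It was not called as deposited (0.11, limma-trend adjusted p = 0.266), turned to -0.01 without control replicate 3 and was called higher without control replicate 1 (0.21, limma-trend adjusted p = 0.0194). With all 6 libraries it was called higher after median scaling (0.65) but not under quantile normalization (0.20).

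ATP5IF1 encodes the inhibitor that stops the synthase from running backwards and spending ATP when the proton gradient is lost. It was at 256, 278 and 258 TPM in control and at 172, 175 and 185 TPM after ES-Cu (log2 fold change -0.57), called lower as deposited and not after median scaling (-0.03, limma-trend adjusted p = 0.549). The ATP5IF1 to ATP5F1B ratio was 0.161, 0.178 and 0.165 in control and 0.153, 0.157 and 0.163 in ES-Cu, with overlap (exact two-sided permutation p = 0.2, difference of means -0.0105). Over the 4 ratios of 2 genes and 3 shares computed, none could pass 0.05 with 3 libraries a group.

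Summed over their genes, all 4 complexes were lower in every ES-Cu library than in any control library on the deposited scale. Complex II went from 1020 ± 10.5 to 683 ± 17.9 TPM (67.0% of control) and complex V from 8085 ± 160.0 to 5665 ± 70.5 TPM (70.1%). Complex III went from 2274 ± 40.6 to 1999.7 ± 38.8 TPM (87.9%) and complex IV from 8528 ± 115 to 7399.8 ± 238 TPM (86.8%). UQCRH alone made up 50.9% of the complex III sum in control and 60.2% in ES-Cu. After median scaling the log2 ratios of the sums were -0.04, 0.36, 0.34 and 0.03 for complexes II, III, IV and V. Within a library, shares of the 4-complex total are not altered by a single scaling factor per library, as in median scaling, but quantile normalization can alter them, and the values here are from the deposited TPM. Complex V made up 40.6% ± 0.395 of it in control and 36.0% ± 0.466 in ES-Cu, complex II 5.12% ± 0.106 and 4.34% ± 0.171, complex IV 42.8% ± 0.164 and 47.0% ± 0.941, and complex III 11.4% ± 0.250 and 12.7% ± 0.410. Groups did not overlap in any of the 4 shares. These sums over chosen members are described without a test.

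**Figure D2:**
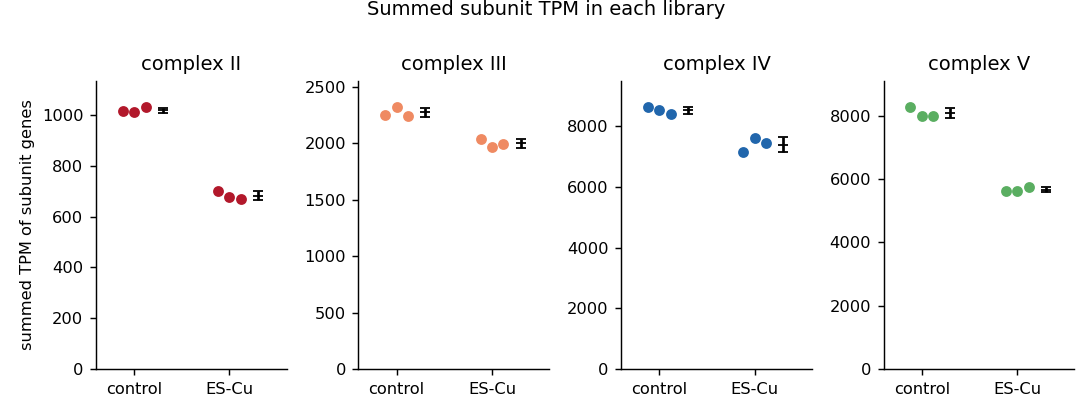
Summed TPM of the subunit genes of each complex (y axis, TPM from 0, with a scale of its own in each panel) in the 3 control and 3 ES-Cu libraries. Points are libraries and the bar beside them is the mean ± SD. Complexes II and V stood at 67.0% and 70.1% of control, complexes III and IV at 87.9% and 86.8%.

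**Figure D3:**
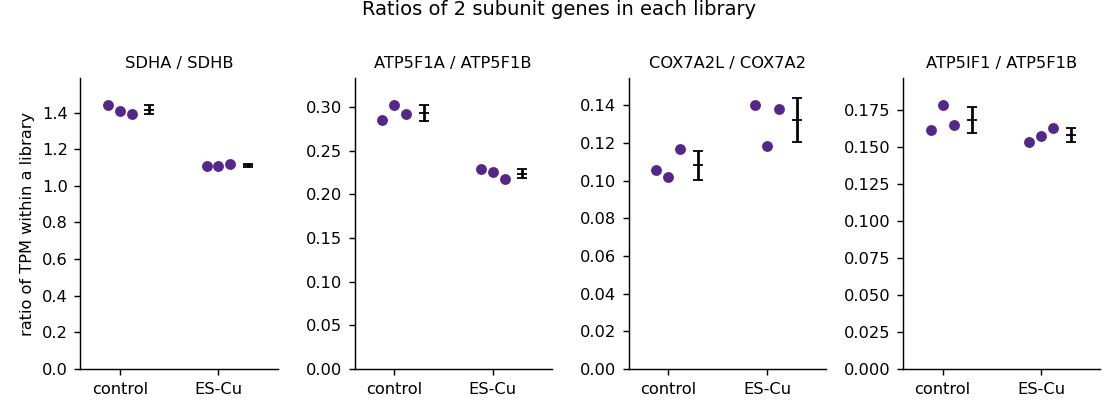
Ratios of TPM of 2 subunit genes within each library (y axis from 0, no unit). Points are libraries and the bar beside them is the mean ± SD of 3. SDHA over SDHB and ATP5F1A over ATP5F1B were lower in all ES-Cu libraries, COX7A2L over COX7A2 was higher in all, and ATP5IF1 over ATP5F1B overlapped.

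Genes for the assembly of the complexes had lower median log2 fold changes than the subunits they assemble, as deposited and after median scaling, but for complex V the order turned under quantile normalization (-0.22 for factors and -0.41 for subunits). For complex IV the quantile medians were -0.19 and -0.13. For complex II 3 of 4 assembly factors fell and 0 rose, with a median log2 fold change of -1.14 against -0.58 for its subunits. SDHAF4, which helps SDHA to join SDHB, was at 10.7, 9.95 and 7.18 TPM in control and at 1.74, 1.63 and 1.19 TPM in ES-Cu (-2.02 ± 0.15 SE, limma-trend adjusted p = 2.53e-07), and SDHAF3, a factor of SDHB maturation, went from 40.01 ± 4.03 to 15.4 ± 1.44 TPM (-1.32). For complex III 4 of 9 fell and 1 rose (median -0.60 against -0.37 for the subunits), with UQCC2, needed for synthesis of cytochrome b, from 148 ± 5.66 to 50.2 ± 1.02 TPM (-1.54) and UQCC3 at -1.30. For complex IV, factors of assembly and copper delivery counted 10 of 26 that fell and 2 that rose (median -0.53 against -0.22). COA3, which stabilises the newly made core subunit, went from 72.0 ± 4.06 to 26.3 ± 1.63 TPM (-1.42), and SCO2, a copper carrier to that complex, from 12.4 ± 3.77 to 4.33 ± 1.24 TPM (-1.31). For complex V 2 of 5 fell and 0 rose (median -0.81 against -0.50), namely ATPAF1 (-1.16), a chaperone of the F1 beta subunit, and FMC1 (-1.09). The shares of the lists that fell stand beside 31.6% of all tested genes, and the difference between factors and subunits was not tested. The median level of the factors, in TPM over all libraries, was 21.6 for complex II, 27.6 for complex III, 27.2 for complex IV and 13.5 for complex V, against 227 for the subunits, and across all tested genes low level went with lower log2 fold change (Spearman rho 0.25 over 11857 genes, which share the same libraries). The part of level in this difference was not tested.

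**Figure D4:**
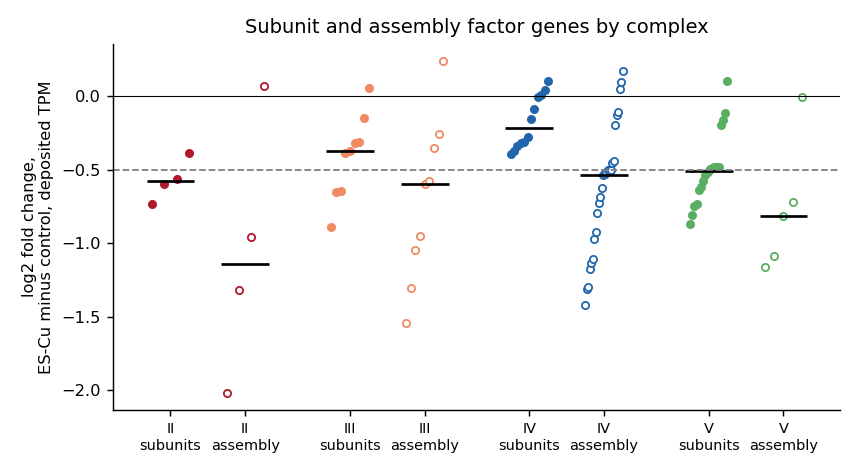
Log2 fold change (ES-Cu minus control, deposited TPM) of tested subunit genes (filled) and assembly factor genes (open) of each complex, with the median of each set as a black bar. The dashed line is the median of all tested genes (-0.50), and the assembly factor medians, from -1.14 to -0.53, lie below it and below those of the subunits, an order that turned for complex V under quantile normalization.

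Of 3 genes next to these complexes 2 rose. CYCS, cytochrome c, which carries electrons from complex III to complex IV, was at 176, 196 and 184 TPM in control and at 240, 239 and 208 TPM in ES-Cu. It rose (log2 fold change 0.30 ± 0.061 SE, limma-trend adjusted p = 7.63e-04), and all ES-Cu libraries were above all controls, as for 14.0% of tested genes. NDUFA4, the complex IV subunit that the symbol rule misses, also rose, from 230, 219 and 226 TPM to 259, 240 and 256 TPM (0.16, limma-trend adjusted p = 0.00420), and was singled out after its value was seen. NDUFA4L2, its hypoxia-related relative, was low at 5.28 ± 0.989 and 2.93 ± 1.06 TPM (-0.70), and was not called after median scaling (-0.27) or under quantile normalization (-0.06).

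Regulators of respiratory genes did not move together. Of 9 tested, 3 rose and 1 fell (13.5% and 31.6% of all tested genes), and on the deposited scale 3 were called higher and 4 lower (13.6% and 70.0%). GABPA was at 18.2, 21.0 and 18.4 TPM in control and at 36.3, 32.5 and 32.4 TPM after ES-Cu (log2 fold change 0.78 ± 0.074 SE, limma-trend adjusted p = 1.82e-06), and its partner GABPB1, named after its value was seen, rose as well (0.62). NRF1 went the other way, from 14.9, 13.3 and 13.7 TPM to 8.32, 7.05 and 8.66 TPM (-0.73 ± 0.091 SE, limma-trend adjusted p = 1.63e-05). It was called lower as deposited and after median scaling (-0.24, adjusted p = 0.0270, limma-trend) but not under quantile normalization (-0.19, adjusted p = 0.0631, limma-trend). These are transcript levels, and no binding to the promoters shown above was measured.

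Complex I, the largest respiratory complex and the closest relative of this set, had a lower median. All 37 of its listed subunit genes were tested, 35 were called lower and 1 higher as deposited (70.0% and 13.6% of all tested genes), and 13 fell and 1 rose (31.6% and 13.5%), so that the number that fell was near the share over all genes. Their median log2 fold change was -0.54, against -0.39 for complexes II to V, and NDUFV3 (-0.996), an accessory subunit of its NADH-oxidising arm, was among those that fell. The summed TPM of complex I went from 9843 ± 88.6 to 7310 ± 26.6 TPM, 74.3% of control, between the values of complexes II and V and those of complexes III and IV. The difference between the 2 sets was not tested.

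The members are highly expressed and mostly short genes. Their mean level had a median of 227 TPM (2.52 to 2186), against 17.4 TPM over the 11857 tested genes with a transcript in GENCODE, and 42 of 43 had a mean of at least 20 TPM. The GENCODE transcript with the longest coding sequence had a median length of 1058 bases for the members and 3033 bases for all tested genes. Among the 43 members the log2 fold change had a Spearman rho of -0.04 with transcript length, -0.18 with GC content and 0.04 with level, as descriptions over genes that share the same 6 libraries. Over the 11857 tested genes the rho was 0.03 with length, -0.21 with GC content and 0.25 with level. The part of level or GC content in the difference between members and all tested genes was not tested. The 21 shorter members had a median of -0.39 and the 22 longer ones of -0.38. Pseudogenes named after the gene are annotated for 28 of the 43 members, up to 17 for COX6C, and reads of 50 bases could be split between a gene and such copies. The median log2 fold change was -0.37 for those 28 and -0.39 for the other 15.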

How the data were processed

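RNA of 6 CAL-27 libraries was sequenced as single-end reads on a BGISEQ-500, per the labels' protocols. The authors deposited one table of TPM, in which length-corrected values are set relative to the library's total. The submitters' processing notes list HISAT and Bowtie2, with no version, and the counting tool and annotation are not given in the sources used here. These notes also name GRCm38.p6, a mouse build, while the table lists human genes, and the human RefSeq gene table holds 16753 of the 16809 gene identifiers (all 46 members, with equal symbols). TPM keeps no read totals, so depth and counting error are unknown and only the spread between libraries is given.

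The test was limma-trend (limma 3.58.1, R 4.3.3, two-sided) on log2(TPM + 1) of the 11927 genes that averaged 1 TPM or more, with Benjamini-Hochberg adjustment over all of them and a threshold of 0.05. Fold changes are on that scale, which understates changes of low genes, and no replicate block was used. The fit was repeated after median-of-ratios scaling and quantile normalization. Other settings tried were a pseudocount of 0.1 or 0.5, a filter of 5 TPM or none, no trend, a replicate block and each library left out. Ratios and shares within libraries were compared by exact permutation. The members and lists were chosen with earlier results of these data known. Values in every library are given for the catalytic, core, c-ring and inhibitor genes, COX7A2L and, per complex, the 3 members with the largest change and the most abundant one; of other lists up to 2 genes with the largest change, an adjusted p under 0.05 and 5 TPM or more on average in a group are named, except that 1 gene is not reported here. COX6A1, COX6C, COX7A2, ATP5MG and ATP5MK were given in full after their values were seen. On simulated libraries of 11927 genes for ES-Cu against control, in which genes above 5 TPM were changed, the code called 50 of 50 at a log2 fold change of -1, 39 of 50 at -0.5, 34 of 50 at 0.5, 50 of 50 at 1 and 4 of 11727 unchanged genes. Few genes were changed there, as many up as down, whereas 70.0% of tested genes were called lower in the data. These rates therefore do not carry over to the reported calls.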

Additional observations from a re-analysis of the deposited data

How the results depend on the processing

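The choice of scaling mattered most. After median-of-ratios scaling 6 members were called lower and 22 higher, against 35 and 0, and 4348 tested genes were called lower and 4428 higher, against 8351 and 1628. Quantile normalization gave 30 and 5 members and 4756 lower and 3749 higher genes. After median scaling 25 members changed sign, to 0.16 (SDHB), 0.16 (UQCR11), 0.37 (UQCRB), 0.16 (UQCRC1), 0.23 (UQCRC2), 0.22 (UQCRQ), 0.46 (COX4I1), 0.23 (COX5A), 0.15 (COX5B), 0.23 (COX6B1), 0.38 (COX6B2), 0.26 (COX7A2), 0.20 (COX7B), 0.39 (COX7C), 0.17 (COX8A), 0.0593 (ATP5F1B), 0.0455 (ATP5F1D), 0.34 (ATP5F1E), 0.0044 (ATP5MF), 0.43 (ATP5MG), 0.38 (ATP5MJ), 0.0608 (ATP5PB), 0.0288 (ATP5PD), 0.0588 (ATP5PF) and 0.0555 (ATP5PO), as did the marker CD68 (0.22). Under quantile normalization the sign changed for UQCRB (0.28), COX6A1 (-0.0300), COX6B2 (0.61), ATP5F1E (0.13), ATP5MG (0.0840) and ATP5MJ (0.0934). The log2 ratios of the complex sums moved to -0.0351 (II), 0.36 (III), 0.34 (IV) and 0.0303 (V) after median scaling and to -0.41 (II), -0.12 (III) and -0.44 (V) under quantile normalization. Both scalings set a different reference level by construction, and which of them is nearest to RNA amounts per cell was not tested.

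Leaving out 1 library gave 34 to 36 members called lower, 0 to 2 called higher, 6 or 7 that fell and 0 to 2 that rose in all 3 scalings. The 2 that rose without control replicate 1 were COX6C and ATP5MK, and COX6C rose without ES-Cu replicate 2. All 6 members that fell did so in each of these fits, with the block and with pseudocounts of 0.1 and 0.5. The log2 fold change of COX6B2 then ran from -0.11 to 0.14, above 0 without control replicate 3 (0.14) or ES-Cu replicate 3 (0.05). That of COX7A2L ran from -0.0352 to 0.0434, below 0 without control replicate 1 or ES-Cu replicate 3 (-0.02), and that of ATP5MK from -0.0144 to 0.21, below 0 without control replicate 3. The change of the ATP5MC3 share, 0.18 percentage points, ran from -0.16 to 0.55 with 1 library left out, and was -0.15 without control replicate 3 and -0.16 without ES-Cu replicate 1. COX4I1 also lost its call without a filter (adjusted p = 0.0593, limma-trend) and without the trend (adjusted p = 0.155, limma). With the replicate number as a block 36 members were called lower and 1 higher, and 1, COX6C, rose in all 3 scalings. The numbers did not pair the libraries: deviations of same-numbered libraries from their group means correlated at 0.02, -0.03 and 0.01. Other pseudocounts and filters left the numbers of members called at 34 or 35 lower and 0 higher. Depth is unknown, so the limits of single low values cannot be given.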
